A study of Homo sapiens with 8 samples.

Results

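Transcripts of the enzymes that make purine and pyrimidine nucleotides were compared in K562 cells, an established line grown from a human chronic myeloid leukaemia. The members are 38 genes named for their roles in nucleotide supply, and a member counted as measured where a probe set listed it as its single gene symbol. By that rule 35 of the 38 members were measured, among 19775 genes in all. ADSS2, UCK2 and NME2 were not analysed here. Every culture stably carried p42-C/EBPα-ER, a fusion of the full-length form of the granulocytic transcription factor C/EBPα to the oestrogen receptor, which moves into the nucleus when oestradiol is added. Of the 8 cultures, 4 received 1 µM beta-estradiol and 4 the ethanol vehicle, each for 6 h. The serum, at 10%, was charcoal-stripped and the medium free of phenol red. Cells without the fusion are not among the samples, so an effect of the hormone alone cannot be told apart from that of the fusion. The sources used here do not say whether the line is 1 clone. The sample titles call the cultures biological replicates.

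Levels are log2 array values per gene, and a difference of 1 on that scale is a doubling of signal. Each gene was tested with limma over all 19775 genes. "Rose" and "fell" are used for a Benjamini-Hochberg adjusted p below 0.05. Levels of different genes come from different probes, so a difference of level between genes is not read as a difference of amount. The arrays had medians of 4.97 to 5.08, and precision is limited by there being 4 per group. Of the erythroid markers of this line, 6 of 8 were measured, at mean levels from 8.47 to 13.95, with embryonic globin HBZ the highest. Of these, GATA1, KLF1 and HBE1 fell with estradiol (log2 differences of −0.89, −0.71 and −0.17), and the part of these falls in the changes of the members was not tested. HBZ, EPOR and TFRC did not pass (−0.04, −0.15 and 0.08). The 7 monocyte and neutrophil markers lay between 3.56 and 5.72 and 5 measured T and B cell markers between 4.09 and 7.96. The 7 epithelial and fibroblast markers spanned 3.34 to 11.70, with KRT18 at 11.55 with estradiol and 11.86 with vehicle, and EPCAM at 10.81 and 10.98. Among the markers of other cell types KRT18 and the neutrophil marker ELANE fell (−0.31 and −0.23, adjusted p = 0.000609 and 0.0407). Values are those of whole cultures, in which fewer cells of a kind and less RNA per cell cannot be told apart.

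Purine nucleotides are built stepwise on phosphoribosyl pyrophosphate (PRPP), a ribose donor, up to inosine monophosphate (IMP), from which AMP and GMP branch. Pyrimidines are built as a ring first and then joined to PRPP to give UMP, the source of CTP. Ribonucleotide reductase turns ribonucleotides into the deoxynucleotides of DNA, and thymidylate synthase and the salvage kinases complete that supply. The transcription factor MYC is known to activate many genes of base synthesis, while transcripts of the deoxynucleotide enzymes are known to rise at the start of DNA synthesis under E2F factors.

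With estradiol 10 of 16 measured enzymes of base synthesis fell and 0 rose, while the 3 ribonucleotide reductase subunits and the deoxynucleoside kinases TK1 and DCK rose. Of the 35 measured members 12 fell, 6 rose and 17 did not pass the test. Thus 51.4% of members passed, against 17.9% of all genes. Falls made up 9.60% and rises 8.29% of all genes. Bright genes passed more often. Among the 9742 genes with a mean level of at least 6 the share was 32.4%, and 54.5% of the 33 members at that level passed. Of those 9742 genes 17.1% fell and 15.2% rose. The median change of the 35 members was −0.05 on the log2 scale, and that of all genes was −0.03. All the member changes were small. Falls measured 0.13 to 0.45 in log2 units, rises 0.16 to 0.36, and 0 of the 18 reached 1.5-fold. The groups did not overlap in 27 of the 35 members, or 77.1%, against 24.1% of all genes whatever their level. With each array centred on its median, 6 members fell (PPAT, GART, IMPDH1, GMPR, CAD and UMPS) and 4 rose (UCK1, RRM2, RRM2B and DCK). The balance of all genes turned in that setting, with 1659 rises and 1291 falls, so that 56.2% of calls were rises against 46.3% before. With 75th percentile centring or quantile normalization instead, 15 members fell and 5 rose.

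**Figure D1:**
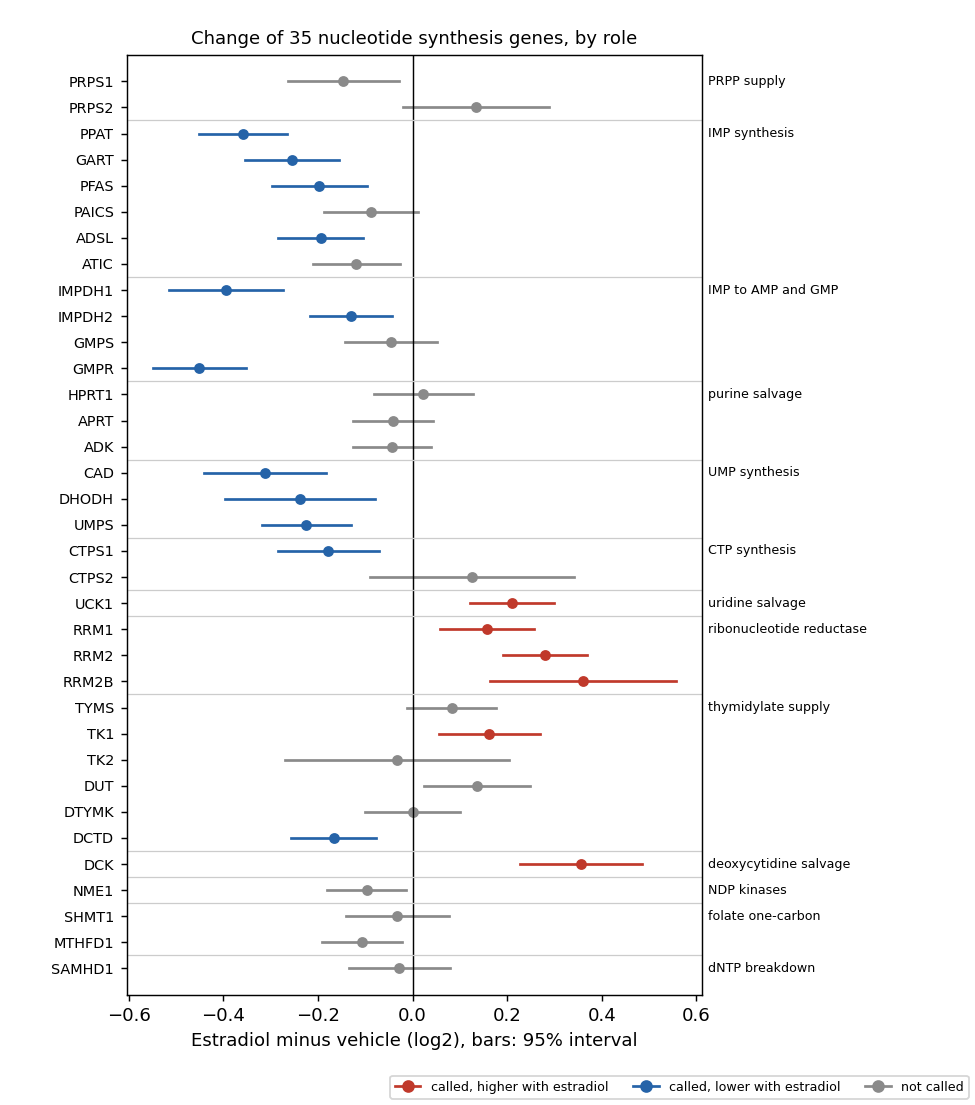
Difference of estradiol minus vehicle (log2) for the 35 measured members, grouped by role, with 95% intervals of the limma fit over 4 arrays per group. Blue and red mark genes that fell or rose at adjusted p below 0.05 and grey those that did not pass. The falls lie in IMP synthesis, the steps between IMP and GMP, UMP and CTP synthesis and DCTD. The rises lie in uridine salvage, ribonucleotide reductase, TK1 and DCK.

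Synthesis of IMP fell at 4 of its 6 enzymes, and all 6 had negative differences. PPAT, the amidotransferase that commits PRPP to purine synthesis, was at 9.76, 9.72, 9.75 and 9.73 with estradiol and at 10.14, 10.06, 10.14 and 10.06 with vehicle. The groups lay well apart, and PPAT fell by 0.36 ± 0.04 (SE, limma adjusted p = 0.000299), or 1.28-fold. A second bright PPAT probe set fell by 0.37. The third, which alone has no suffix for shared sequence and is dim at a mean level of 5.69, differed by −0.04 and did not pass when used instead (adjusted p = 0.756). GART, which carries out 3 steps of the pathway in a single protein, was at 10.48, 10.43, 10.40 and 10.42 against 10.68, 10.61, 10.73 and 10.72. Every estradiol array was below every vehicle array, and GART fell by 0.26 ± 0.04 (adjusted p = 0.00330). PFAS, the formylglycinamidine synthase, was at 9.44, 9.37, 9.36 and 9.37 against 9.64, 9.53, 9.61 and 9.55, a fall of 0.20 ± 0.04 (adjusted p = 0.0130) with no overlap. ADSL, the lyase that acts in IMP synthesis and again on the way to AMP, was at 11.39, 11.38, 11.32 and 11.35 against 11.58, 11.51, 11.58 and 11.56, a fall of 0.19 ± 0.04 (adjusted p = 0.00808) with no overlap. PFAS and ADSL lost their calls with each array centred on its median (adjusted p = 0.115 and 0.0888).

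The other enzymes of that route did not pass the test. PAICS, which carries out a pair of middle steps, differed by −0.09 (95% interval −0.19 to 0.01, adjusted p = 0.236), and its groups overlapped. ATIC, which closes the ring, differed by −0.12 (−0.21 to −0.03, adjusted p = 0.0789) with no overlap of the groups. It passed without vehicle replicate 2 (adjusted p = 0.0442) and under 5 of 11 alternatives that kept all 8 arrays. Before the pathway, the PRPP synthetases also did not pass. PRPS1 differed by −0.15 (−0.26 to −0.03, adjusted p = 0.0934, and 0.0285 without vehicle replicate 2), and PRPS2 by 0.13 (−0.02 to 0.29, adjusted p = 0.247). PRPS1 also passed under 5 of the 11 alternatives that kept all arrays.

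PPAT and PAICS are neighbours on chromosome 4 that are read in opposite directions. In the RefSeq promoter table (GRCh38.p14) the PPAT start lies at 56435615 on the minus strand and a PAICS start at 56435752 on the plus strand, 137 bases apart, so both genes share this stretch. The sequence between those starts, chr4:56435616-56435751, is shown on the strand of PPAT, so it begins beside the PAICS start and ends beside the PPAT start. The 30 bases around the single CACGTG of the window, the E-box that MYC and MAX are known to bind, are at chr4:56435780-56435809 on the same strand, with the motif in capitals.
PAICS start to PPAT start: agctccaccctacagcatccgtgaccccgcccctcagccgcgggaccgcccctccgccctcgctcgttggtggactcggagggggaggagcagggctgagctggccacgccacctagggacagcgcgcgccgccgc
E-box: aacggagatttcCACGTGcagcaaatacag
The motif begins at position −182 from the PPAT start and, on the other strand, at position 40 from the PAICS start. PPAT minus PAICS, taken within each array, shifted by −0.27 on the log2 scale (SD of 0.03 over the estradiol and 0.04 over the vehicle arrays), and the second bright PAICS probe set differed by −0.12. Averaging all 3 probe sets of each gene gave a shift of −0.13, and the probe sets without a suffix gave 0.13. The pair was singled out after its values were seen, so the shift is a description.

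In the RefSeq windows, from 250 bases before to 50 after each start, the letters CACGTG, which read the same on both strands, occurred in 7 of the 35 members with a window, or 20.0%, against 8.78% of all 27305 genes. A gene counted where any of its windows held the motif. The 35 include members that were not measured. Of the 15 base synthesis genes with a window 4 held the motif, and of the 6 S phase enzymes 0. The 7 genes were PPAT, PAICS, ATIC, DHODH, DCK, NME1 and MTHFD1. PPAT and PAICS hold the same site and are counted separately, also among the base synthesis genes. The 7 did not share a direction, since PPAT and DHODH fell, DCK rose and the other 4 did not pass the test. The upstream matches are shown with 12 bases on each side, on the strand of the gene, to place the motif in genes that fell, rose or did not pass.
DHODH: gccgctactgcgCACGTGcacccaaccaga
DCK: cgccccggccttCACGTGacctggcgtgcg
ATIC: gggccggcgggcCACGTGataagcccggaa
MTHFD1: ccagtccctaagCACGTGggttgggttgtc
These lie at chr16:72008573-72008602, chr4:70993521-70993550, chr2:215312001-215312030 and chr14:64388326-64388355, with the motif beginning at positions −159, −116, −46 and −15 from the start. The E2F letters TTTCGCGC or TTTGGCGC, on either strand, occurred in GART, DUT and DCK, 3 of 35 members, or 8.57%, against 1.40% of all genes. These genes did not share a direction either, since GART fell, DCK rose and DUT did not pass the test. The E2F letters were in 1 of the 6 S phase enzymes and in 1 of the 15 base synthesis genes with a window. The C/EBP letters TTGCGCAA or TTACGCAA, on either strand, occurred in 0 of 35 members and in 0.370% of all genes.

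Of the 4 measured genes that act between IMP and GMP 3 fell, among them GMPR, which runs from GMP back to IMP. IMPDH1, an isoform of the dehydrogenase that commits IMP to GMP, was at 7.37, 7.57, 7.45 and 7.55 with estradiol and at 7.88, 7.91, 7.85 and 7.87 with vehicle. The groups were separate, and IMPDH1 fell by 0.39 ± 0.05 (SE, adjusted p = 0.000807). IMPDH2, the isoform known to prevail in dividing cells, was at 11.75, 11.76, 11.72 and 11.72 against 11.87, 11.83, 11.89 and 11.89. This fall of 0.13 ± 0.04 (adjusted p = 0.0455) was near the threshold, and it passed in 1 of the 8 fits that left out an array, that without vehicle replicate 2 (adjusted p of 0.0701 to 0.128 in the other 7). GMPS, which makes GMP in the next step, differed by −0.05 (95% interval −0.14 to 0.05, adjusted p = 0.573).

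The largest fall among the members was that of GMPR, the reductase that takes GMP back to IMP and so is not an enzyme of base synthesis. It was at 8.65, 8.68, 8.73 and 8.61 against 9.16, 9.08, 9.11 and 9.13, a fall of 0.45 ± 0.04 (adjusted p = 0.000109), or 1.37-fold. The arrays of the groups were far apart relative to their spread. The purine salvage enzymes did not pass the test. HPRT1, which recycles hypoxanthine and guanine, differed by 0.02 (95% interval −0.08 to 0.13), APRT, which recycles adenine, by −0.04 (−0.13 to 0.04), and the adenosine kinase ADK by −0.04 (−0.13 to 0.04).

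All 3 genes of UMP synthesis fell. CAD, a single protein with the first 3 activities of the route, was at 8.93, 9.01, 8.79 and 8.88 with estradiol and at 9.20, 9.14, 9.24 and 9.28 with vehicle. The groups did not overlap, and CAD fell by 0.31 ± 0.06 (SE, adjusted p = 0.00465), or 1.24-fold. UMPS, which completes UMP, was at 9.36, 9.36, 9.35 and 9.43 against 9.63, 9.60, 9.64 and 9.55, a fall of 0.22 ± 0.04 (adjusted p = 0.00506). With the mean of its 4 probe sets UMPS did not pass (adjusted p = 0.107), nor at its dim probe set of 4.97 (−0.12, adjusted p = 0.652). DHODH, the mitochondrial dehydrogenase of the pathway, was at 6.89, 7.01, 6.98 and 6.85 against 7.29, 7.27, 7.07 and 7.04. Its groups were close, with 7.01 the highest estradiol and 7.04 the lowest vehicle value, and its fall of 0.24 ± 0.07 (adjusted p = 0.0461) passed in 2 of the 8 fits without 1 array, those without vehicle replicate 3 or 4 (0.0611 to 0.129 in the other 6). With the mean of its 3 probe sets DHODH differed by −0.15 (adjusted p = 0.0949).

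Of the CTP synthetases, which aminate UTP to CTP, 1 fell. CTPS1 was at 9.77, 9.80, 9.73 and 9.85 against 9.97, 9.89, 10.04 and 9.96, a fall of 0.18 ± 0.05 (adjusted p = 0.0300) that passed in 2 of the 8 fits without 1 array, those without estradiol replicate 4 or vehicle replicate 2 (0.0546 to 0.0862 in the other 6). CTPS2 differed by 0.13 (95% interval −0.09 to 0.34, adjusted p = 0.464) and did not pass. CTPS2 was at 6.49 in vehicle replicate 2 and at 6.77 to 6.98 in the other vehicle arrays, and another CTPS2 probe set differed by −0.09. UCK1, a kinase that salvages uridine and cytidine, was at 8.34, 8.28, 8.33 and 8.29 against 8.10, 8.07, 8.10 and 8.14. It rose by 0.21 ± 0.04 (adjusted p = 0.00495), and its second probe set rose by 0.25.

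All 3 subunit genes of ribonucleotide reductase rose. RRM2, the small subunit made in S phase, was at 12.19, 12.16, 12.13 and 12.11 with estradiol and at 11.88, 11.82, 11.89 and 11.88 with vehicle. The groups lay apart, and RRM2 rose by 0.28 ± 0.04 (SE, adjusted p = 0.00109), or 1.21-fold, with 0.40 at its second probe set. RRM1, the large subunit, was at 10.63, 10.66, 10.59 and 10.57 against 10.52, 10.40, 10.46 and 10.44, a rise of 0.16 ± 0.04 (adjusted p = 0.0356). It passed in 1 of the 8 fits without 1 array, that without vehicle replicate 1 (0.0607 to 0.103 in the other 7).

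RRM2B, the small subunit induced by p53 that also serves cells outside S phase, was at 7.64, 7.71, 7.64 and 7.67 against 7.45, 7.03, 7.34 and 7.41. The vehicle arrays were spread, with replicate 2 the lowest, and the groups did not overlap. It rose by 0.36 ± 0.09 (adjusted p = 0.0189). The adjusted p was 0.0562 when estradiol replicate 2 was left out and 0.0522 when estradiol replicate 4 was. Without vehicle replicate 2 the rise was 0.27 and passed.

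Of 6 genes of thymidylate supply 1 rose, 1 fell and 4 did not pass the test. Thus 33.3% passed, near the 32.4% of all genes at a mean level of at least 6. TK1, the cytosolic thymidine kinase of S phase, was at 10.11, 9.93, 10.00 and 10.01 against 9.88, 9.83, 9.84 and 9.85. It rose by 0.16 ± 0.05 (SE, adjusted p = 0.0438), with 0.18 at its second probe set. The call passed in 1 of the 8 fits without 1 array, that without estradiol replicate 2 (0.0575 to 0.106 in the other 7), and was lost under all 3 other scalings of the arrays (0.0527 to 0.0968). TYMS, thymidylate synthase, was at 12.34, 12.29, 12.26 and 12.31 against 12.19, 12.17, 12.26 and 12.24, a difference of 0.08 ± 0.04 that did not pass (adjusted p = 0.237). The groups of TYMS touched without overlapping. DUT, the dUTPase that supplies dUMP, differed by 0.14 (95% interval 0.02 to 0.25, adjusted p = 0.101), and the thymidylate kinase DTYMK by 0.00 (−0.10 to 0.10).

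DCTD, the deaminase that turns dCMP into dUMP, went the other way. It was at 10.17, 10.16, 10.16 and 10.17 against 10.38, 10.27, 10.34 and 10.35, a fall of 0.17 ± 0.04 (adjusted p = 0.0174). DCTD no longer passed (adjusted p of 0.0510 to 0.0558) when any of 4 arrays was left out, which were replicates 2 and 4 of estradiol and replicates 3 and 4 of vehicle. It also did not pass with median centring (adjusted p = 0.153) or with the mean of its 3 probe sets (−0.13, adjusted p = 0.0662). DCK, the kinase that salvages deoxycytidine, deoxyadenosine and deoxyguanosine, was at 8.18, 8.21, 8.11 and 8.18 against 7.94, 7.69, 7.80 and 7.82. All the estradiol arrays were above the vehicle arrays, and DCK rose by 0.36 ± 0.06 (adjusted p = 0.00230), or 1.28-fold. The mitochondrial thymidine kinase TK2 differed by −0.03 (95% interval −0.27 to 0.20).

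**Figure D2:**
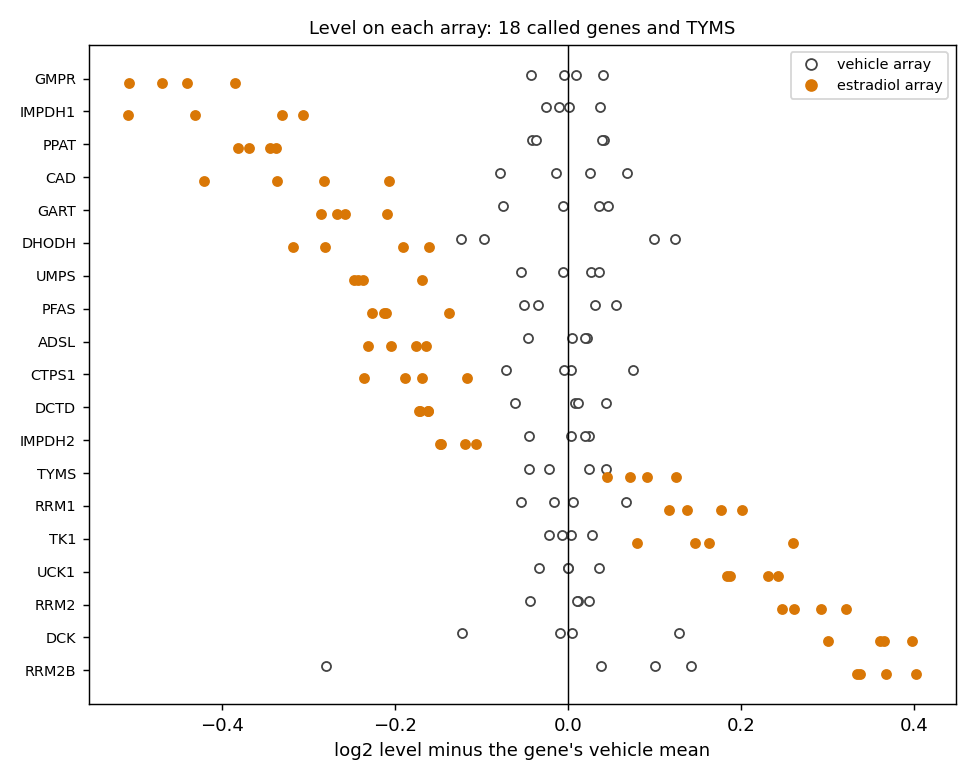
Log2 level on each array minus the vehicle mean of the gene, for the 18 members that passed the test and TYMS; open points are the 4 vehicle arrays and filled points the 4 estradiol arrays. The groups do not overlap in these 19 genes, and the RRM2B value of vehicle replicate 2 lies farthest below its group.

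The remaining members did not pass the test. NME1, a nucleoside diphosphate kinase whose transcript closely resembles that of NME2, was at 12.77, 12.76, 12.80 and 12.80 against 12.88, 12.86, 12.90 and 12.89. The groups were separate by a small step, a difference of −0.10 ± 0.04 (SE, adjusted p = 0.115). MTHFD1, which makes the formyl folate used in purine synthesis, differed by −0.11 (95% interval −0.19 to −0.02, adjusted p = 0.0901). SHMT1, the cytosolic serine hydroxymethyltransferase, differed by −0.03 (−0.14 to 0.08) at a mean level of 3.76, close to the lower quartile of every array (3.67 to 3.74), and was not shown to be above background. SAMHD1, which breaks down deoxynucleotides, differed by −0.03 (−0.14 to 0.08).

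Base synthesis and the S phase enzymes were set against each other as classes. The first held 16 measured enzymes, from PRPP supply to the CTP synthetases without GMPR, and the second RRM1, RRM2, TYMS, TK1, DUT and DTYMK. Of the 16 base synthesis enzymes 10 fell and 0 rose, with a median change of −0.19. Of the 6 S phase enzymes 3 rose and 0 fell, with a median of 0.15. The mean level of base synthesis was 9.70, 9.73, 9.67 and 9.70 with estradiol and 9.91, 9.80, 9.89 and 9.86 with vehicle. The mean of the S phase enzymes was 11.41, 11.37, 11.35 and 11.36 against 11.26, 11.17, 11.25 and 11.26. Vehicle replicate 2 was the lowest vehicle array for both classes.

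Within each array the S phase mean minus the base synthesis mean was 1.71, 1.64, 1.68 and 1.66 with estradiol and 1.35, 1.37, 1.37 and 1.40 with vehicle. Its shift of 0.30 had an SD of 0.03 over the estradiol and 0.02 over the vehicle arrays. With RRM2, TYMS and TK1 alone in place of the 6 enzymes the shift was 0.34. Such a difference within an array does not depend on a shift of the whole array, but the classes were chosen with earlier results of these arrays known and it carries no test. The number of S phase enzymes that rose was less stable. It was 2 without estradiol replicate 2 or vehicle replicate 1, and 1 without any other single array, where RRM2 was the gene left. With each array centred on its median 5 base synthesis enzymes fell (PPAT, GART, IMPDH1, CAD and UMPS) and 1 S phase enzyme rose (RRM2). With 75th percentile centring or quantile normalization 12 base synthesis enzymes fell and 2 S phase enzymes rose.

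**Figure D3:**
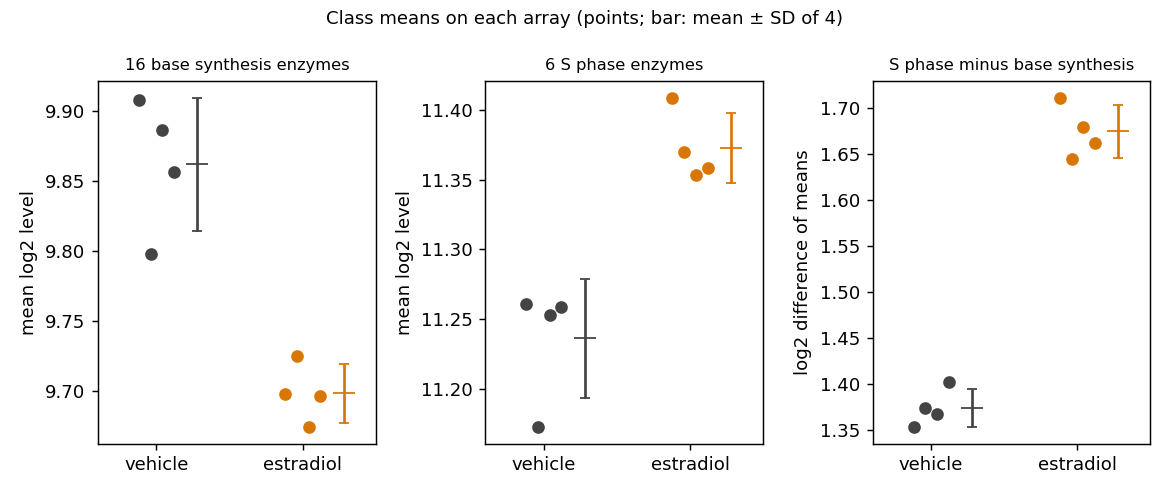
Mean log2 level of the 16 base synthesis enzymes, of the 6 S phase enzymes and the difference of the 2 means, on each array; points are arrays and bars the mean ± SD of 4. Axes do not start at 0. The difference runs from 1.35 to 1.40 with vehicle and from 1.64 to 1.71 with estradiol.

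Of the 4 regulators named with these classes, MYC fell, MAX and E2F2 rose and E2F1 did not pass. MYC was at 10.89, 10.94, 10.92 and 10.91 with estradiol and at 12.08, 12.09, 12.11 and 12.13 with vehicle, a fall of 1.19 ± 0.04 (SE, adjusted p = 1.69e-07). Its partner MAX rose by 0.57 ± 0.04 (adjusted p = 1.85e-05). E2F2, an activator of S phase genes, rose by 0.50 ± 0.05 (adjusted p = 0.000158), or by 0.32 with the mean of its probe sets. E2F1 differed by 0.16 ± 0.06 without passing (adjusted p = 0.104). Their part in the changes of the members was not tested.

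The members were read from 86 probe sets. Of the 18 members that rose or fell, 7 had 1 probe set and 11 had several. Each probe set was also tested on its own, over all probe sets with 1 symbol. In that fit 9 of the 11 had at least 1 further probe set called in the same direction, and 0 had a probe set called in the opposite direction. CAD and DCTD had none further, with differences of −0.14 at the second CAD probe set and of −0.15 and −0.07 at those of DCTD. The leading probe sets of DHODH, RRM1 and TK1 missed the threshold in that fit (adjusted p = 0.0627, 0.0652 and 0.0738), while another probe set of each passed. IMPDH2 and CTPS1, which have no further probe set, also missed it there (adjusted p = 0.0913 and 0.0521). GART had 9 probe sets, with the others between −0.43 and 0.04.

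**Figure D4:**
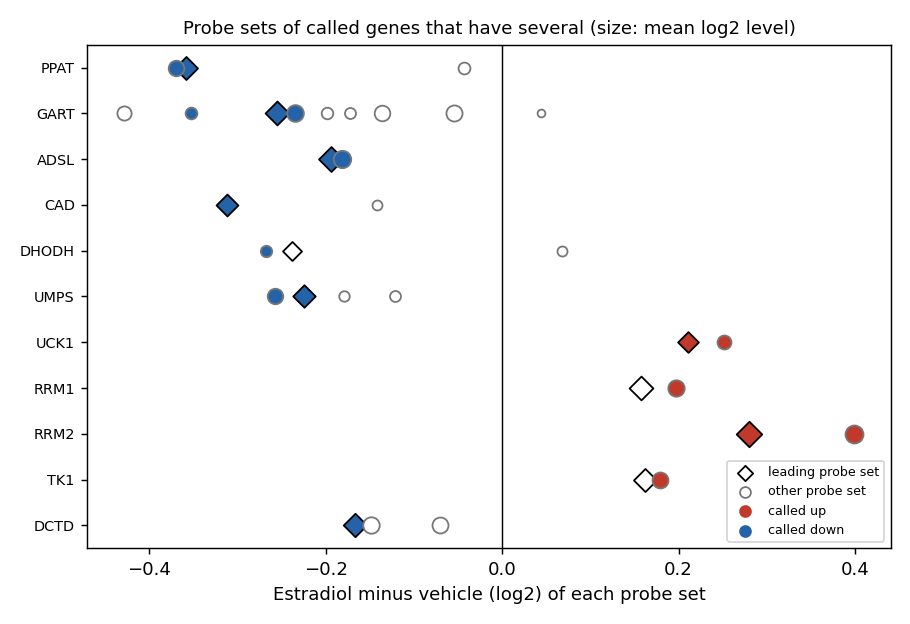
Difference of estradiol minus vehicle (log2) of every probe set of the 11 genes that passed the test and have several. Diamonds are the leading probe sets, circles the others, size grows with the mean level, and filled symbols passed in the fit over probe sets. The bright probe sets of PPAT, ADSL, RRM2 and UCK1 lie on one side of 0, and the RRM2 pair at 0.28 and 0.40.

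Other genes of nucleotide metabolism, 55 of 62 of them measured, fell more often than they rose. Of the 55, 18 fell, 1 rose and 36 did not pass the test, so 34.5% passed, against 17.9% of all genes. Of the 41 at a mean level of at least 6, 46.3% passed, against 32.4% of all genes at that level. The median of the 55 was −0.13. The largest fall was in SLC29A1, the equilibrative carrier that brings nucleosides into the cell. It was at 8.71, 8.73, 8.82 and 8.76 against 9.53, 9.52, 9.54 and 9.53, a fall of 0.77 ± 0.04 (SE, adjusted p = 2.63e-06), or 1.71-fold. This is a larger change than that of any of the 35 members.

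The AMP deaminases followed. AMPD2 was at 7.19, 7.34, 7.29 and 7.25 against 7.94, 7.86, 7.85 and 8.03, a fall of 0.65 ± 0.05 (adjusted p = 4.80e-05), and AMPD3 fell by 0.55 ± 0.07 (adjusted p = 0.000442). AMPD1, the muscle form, differed by −0.09 and did not pass. Its mean levels of 4.27 with estradiol and 4.36 with vehicle lie below the array medians, and it was not shown to be above background. In folate supply 4 of 12 measured genes, or 33.3%, fell and 0 rose. Of all genes 9.60% fell, and of those at a mean level of at least 6, 17.1% fell. SLC19A1, the reduced folate carrier of the cell membrane, was at 8.80, 8.84, 8.85 and 8.80 against 9.34, 9.28, 9.42 and 9.32 and fell by 0.52 ± 0.04 (adjusted p = 5.45e-05). SLC25A32, the mitochondrial folate carrier, fell by 0.35 ± 0.05 (adjusted p = 0.00103). The mitochondrial kinase CMPK2 fell by 0.51 ± 0.05 (adjusted p = 9.63e-05) and was among 5 of 12 nucleotide kinases, or 41.7%, that fell. Of 10 genes of pyrimidine breakdown and salvage 1 fell and 0 rose, a share near the 9.60% of all genes that fell. The single rise of the 55 was the nucleotidase NT5C2 (0.16 ± 0.05, adjusted p = 0.0493). It passed in 1 of the 8 fits without 1 array, that without vehicle replicate 1, and differed by −0.02 at its probe set without a suffix for shared sequence.

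**Figure D5:**
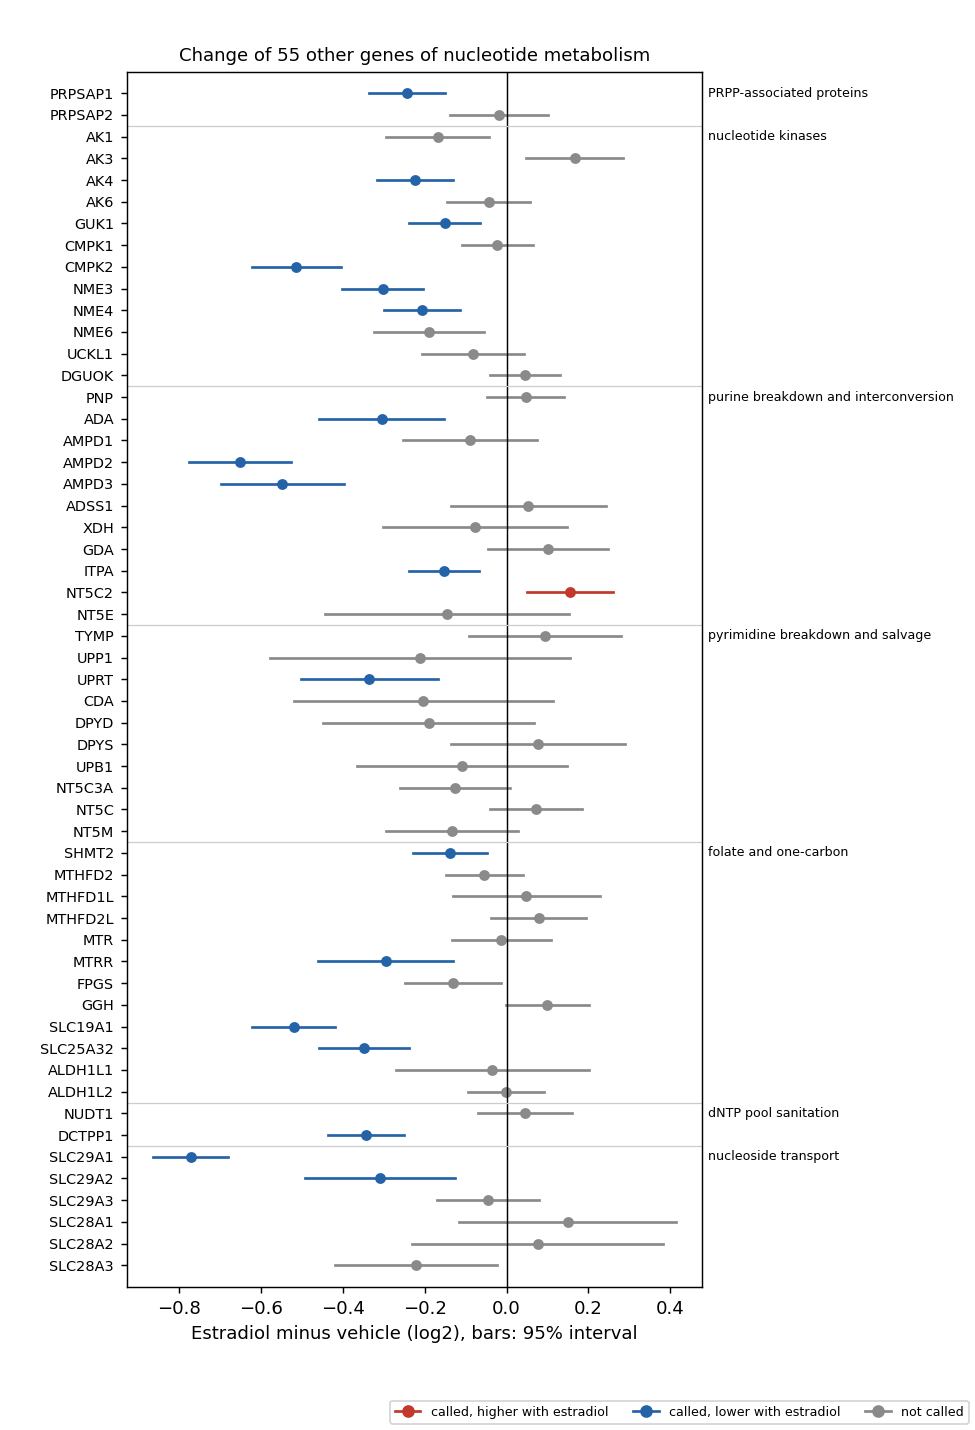
Difference of estradiol minus vehicle (log2) for the 55 other measured genes of nucleotide metabolism, with 95% intervals of the limma fit; colours as in the plot of the members. SLC29A1 lies lowest at −0.77, and NT5C2 at 0.16 is the single rise.

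Members of related function were set side by side in 7 pairs, chosen after their values had been seen, so their gaps are descriptions with no test. A gap is the shift of the difference of both genes within each array. For the 3 pairs IMPDH1 minus IMPDH2, PRPS1 minus PRPS2 and CTPS1 minus CTPS2 the gaps were −0.26, −0.28 and −0.30, and the arrays of the groups did not overlap. The PRPS gap was −0.18 when the probe sets of each gene were averaged. The CTPS gap was then −0.20, and it was −0.09 with probe sets without a suffix for shared sequence. RRM1 minus RRM2 had a gap of −0.12, also without overlap. The gap was −0.24 with the RRM2 probe set without a suffix, while RRM1 has only suffixed ones. The groups overlapped for RRM2 minus RRM2B, with a gap of −0.08 and SDs of 0.05 over the estradiol and 0.16 over the vehicle arrays, and for TK1 minus TK2, with a gap of 0.20 and SDs of 0.21 and 0.17.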

How the data were processed

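Arrays were hybridised with labelled RNA made from 200 ng of total RNA of each of 8 cultures, per the labels' protocols. The values deposited by the authors are log2 expression values. The submitters' processing notes name RMA, without a version. RMA compresses small signals. The deposited arrays differ slightly in their medians, so other scalings were tried. Of 54675 probe sets, 41097 list 1 gene symbol in the platform annotation, 1801 several and 11777 none. Each gene was read from its brightest probe set, by the mean of the 8 arrays.

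Genes were tested with limma 3.58.1 (lmFit, eBayes, no block) in R 4.3.3, with 4 arrays per group and no filter. Errors are moderated SEs. The labels do not say how the biological replicates were kept apart, so p-values reflect the scatter of these 4 and 4 cultures.

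Named were all 38 members, MYC, MAX, E2F1 and E2F2, and up to 6 largest rises and falls among called genes of the other list, and other names followed their values. Members, lists and classes were chosen with earlier results of these data known. Alternatives covered the replicate block, 3 scalings, 2 filters on dim genes, 2 choices of probe set, the variance model, array weights, a stricter threshold and each array left out. Same-numbered cultures deviated together at r of −0.209 to 0.111, with 1 of 4 pairs over 0.1, so the numbers were not taken to pair them. Figures were drawn with matplotlib 3.10.9.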

Additional observations from a re-analysis of the deposited data

Results flagged for a closer look

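In 100 groups of 4 arrays (the genes and class means named above, per treatment) 8 had an array far from the other 3 by Dixon's criterion, where chance gives about 1 in 20 groups. In vehicle replicate 2 the mean of the S phase enzymes was 11.17, against 11.25 to 11.26 in the other vehicle arrays. ATIC was 11.54 in the same array against 11.61 to 11.62, and SHMT1 3.88 against 3.74 to 3.76. In estradiol replicate 4 PRPS1 was 10.50 against 10.57 to 10.58, and UMPS 9.43 against 9.35 to 9.36. APRT was 10.76 in vehicle replicate 4 against 10.71 in the other 3. SAMHD1 was 7.61 in estradiol replicate 1 against 7.73 to 7.74, and E2F2 8.59 in estradiol replicate 3 against 8.67 in the other 3.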

How the results depend on the processing

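Of the 18 members called, 11 were called in every fit without 1 array and 7 (GART, IMPDH1, GMPR, CAD, UCK1, RRM2 and DCK) under every alternative tried. Among members not called, PRPS1, ATIC and MTHFD1 passed under 5 of 11 alternatives that kept all arrays. NME1 and DUT passed under 2 of these, and PAICS and TYMS under 1. Without 1 array 3 to 5 members rose and 8 to 13 fell, 7 to 11 base synthesis enzymes fell, 1 to 2 S phase enzymes rose, and of the other genes 0 to 2 rose and 13 to 19 fell. With the replicate block, which the numbers did not support, 3 members rose, 1 S phase enzyme rose and 0 of the other genes rose. Median centring gave 6 falling members, 5 falling base synthesis enzymes and 1 rising S phase enzyme. It moved the median of all genes from −0.03 to 0.01. 75th percentile centring and quantile normalization each gave 15 falling members, 12 falling base synthesis enzymes and 2 rising S phase enzymes. The filter at a mean level of 6 gave 16 falling members and 12 falling base synthesis enzymes. Where probe sets without an s or x suffix were preferred, 6 base synthesis enzymes fell, 1 S phase enzyme rose and 0 of the other genes rose. Genes with suffixed probe sets alone, such as ADSL, were read from those. With a variance trend 17 members and 13 base synthesis enzymes fell, and 5 S phase enzymes and 2 of the other genes rose. The count of rises among the other genes was also 2 with 75th percentile centring, quantile normalization, array weights and both filters on dim genes. At adjusted p below 0.01 there were 1040 rises and 1139 falls over all genes, 3 and 7 among members, 6 falls in base synthesis, 1 rise in S phase, and 0 rises and 11 falls among the other genes. With each probe set tested on its own, an alternative chosen after seeing the data, 1 S phase enzyme and 0 of the other genes rose. In that fit 4 members rose and 9 fell, with 7 of the falls in base synthesis. The shift of the S phase minus the base synthesis mean stayed between 0.28 and 0.31 wherever it was recomputed. Median and 75th percentile centring could not move it, since array shifts cancel within an array. The filters on dim genes could not either, since all class members lie above them.

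Signs turned, apart from NT5C2 and the gene pairs, in members that did not pass. SAMHD1 was 0.0039 with median centring, HPRT1 −0.0018 and DTYMK −0.0239 with 75th percentile centring, and TK2 0.0081 and DTYMK −0.0287 with quantile normalization. The mean of all probe sets gave HPRT1 −0.0191, ADK 0.12, TYMS −0.0106, TK2 0.0492 and DTYMK −0.0425. Probe sets without an s or x suffix gave CTPS2 −0.0861, TK2 0.0872, DTYMK −0.0538, SHMT1 0.0025, NT5C2 −0.0196, PPAT minus PAICS 0.13 and RRM2 minus RRM2B 0.0388. Array weights gave DTYMK −0.0279. Without 1 array TK2 ran from −0.11 to 0.029, DTYMK from −0.0308 to 0.018 and SAMHD1 from −0.048 to 0.0013. The cause was not tested. No detection calls were used here, so dim members such as SHMT1 have no known distance from background.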
